A study of Mus musculus with 6 samples.

Results

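The genes described here are 10 microtubule regulators of the neuronal cytoskeleton: the doublecortin family members Dcx and Dclk1, the microtubule-associated protein (MAP) genes Map1a, Map1b, Map2 and Mapt, and the stathmin genes Stmn1, Stmn2, Stmn3 and Stmn4. They were chosen by symbol, and all 10 were found among the 19938 genes measured. Each is represented by the probe set annotated to that gene alone with the highest mean over the 6 arrays. RNA came from mouse brain cells of strain C57BL/6J sorted by fluorescence, with 3 arrays of GFP+ cortical neural progenitors and 3 arrays of their RFP+ neuronal progeny, all cells taken in vivo. The RFP+ cells are labelled as brain with no region, the GFP+ cells as cortical. The age of the animals, the promoters of the reporters and whether the replicates came from separate animals are not given in the sources used here, so the spread behind each p-value is that of these arrays and may be technical. Promoter sequence of Dcx is in common use for marking young neurons, and whether Dcx had a part in the sort was not tested.

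Microtubules are polymers of tubulin that carry cargo, push out the axon and dendrites, and form the spindle of a dividing cell. Structural MAPs and the doublecortin proteins bind along the polymer and stabilise or bundle it, whereas stathmins bind free tubulin and favour disassembly. In the developing cortex these proteins shape migrating and process-bearing neurons, and mutations in human DCX cause a band of misplaced neurons or a smooth cortex.

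Promoter sequence is shown because 8 of the 10 genes were lower in GFP+ progenitors, with Stmn3 and Map1b chosen for a shared motif and Dclk1 for the largest difference among genes with a window. RefSeq promoter windows (build GRCm38.p6) were found for 6 of the 10 genes, Dclk1, Dcx, Map1a, Map1b, Map2 and Stmn3, in 8 windows. The 250 bases before each annotated start were searched on both strands for the E-box CANNTG, the site bound by basic helix-loop-helix factors, and for its form CAGATG, which overlaps it. The general E-box was found in 5 of the 8 windows, against 66.2% of all 32851 windows of that length. CAGATG was found in 2 of the 8, those of Map1b and Stmn3, against 14.4% of all windows. Of 3 other motifs searched, the TATA box TATAAA was in 3 of the 8 windows, of Dcx and Map1b, against 12.4% of all windows. The 2 Dcx windows overlap and held 1 TATA box each, which may be the same site. The CCAAT box CCAAT and the GC box GGGCGG were in 3 each, against 33.8% and 32.7%. With 8 windows of 6 genes, nothing particular to these genes is read from such counts. Below, E-boxes are in capitals, and only bases outside the annotated gene are printed, 5′ to 3′ on the gene's strand. The Stmn3 stretch is chr2:181314501-181314750 (minus strand), the Map1b stretch is chr13:99516603-99516852 (minus strand) and the Dclk1 stretch is chr3:55242114-55242302 (plus strand).
Stmn3: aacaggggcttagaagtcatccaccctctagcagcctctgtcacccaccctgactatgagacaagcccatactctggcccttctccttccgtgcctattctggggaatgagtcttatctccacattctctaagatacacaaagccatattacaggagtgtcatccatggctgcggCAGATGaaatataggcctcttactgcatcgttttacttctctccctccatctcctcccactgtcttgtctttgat
Map1b: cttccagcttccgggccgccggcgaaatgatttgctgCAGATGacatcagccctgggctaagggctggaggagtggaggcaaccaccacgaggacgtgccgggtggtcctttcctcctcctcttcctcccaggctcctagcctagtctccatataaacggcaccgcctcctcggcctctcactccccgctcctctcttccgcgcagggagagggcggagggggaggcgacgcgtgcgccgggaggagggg
Dclk1: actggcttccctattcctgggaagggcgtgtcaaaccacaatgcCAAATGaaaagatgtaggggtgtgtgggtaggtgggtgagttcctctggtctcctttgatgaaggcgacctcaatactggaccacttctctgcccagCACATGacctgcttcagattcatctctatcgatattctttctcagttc
Base composition varied across the windows, with a GC content of 41.6% to 81.2% against a median of 52.4% over all windows. The Stmn3 window held 3 CpG dinucleotides and that of Map1b 19, against a median of 6. A motif match describes these letters and does not show a bound site.

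Depth has no meaning for these arrays, and their number limits the precision. Array medians lay between 210.3 and 221.1 intensity units. As a guide to background, the 95th percentile of 1027 olfactory receptor genes was 199.0 to 223.8 per array. The lowest value of any of the 10 genes was 444.8, so all 10 lay above that guide on every array. The labels were checked on marker lists. All 9 progenitor markers were higher in GFP+ progenitors, among them Pax6 at 7499.8 ± 75.7 against 1487.9 ± 210.8 in RFP+ neurons (SD, n = 3 each). All 9 neuron markers were lower in GFP+ progenitors, among them Snap25 at 969.7 ± 243.1 against 4975.7 ± 543.3. The summed neuron markers still reached 6999.8 to 9502.3 in GFP+ arrays, against 28335.5 to 30432.5 in RFP+ arrays. All 7 markers of intermediate progenitors, the dividing cells between radial glia and neurons, were higher in GFP+ progenitors, with sums of 29283.9 to 31393.1 against 9186.9 to 11717.0 in RFP+ neurons. Markers of vascular cells mostly moved with the groups too: all 9 endothelial and 6 of the 7 mural markers were higher in GFP+ progenitors. The mural marker Acta2 did not pass, with means of 462.8 in GFP+ progenitors and 574.2 in RFP+ neurons. The endothelial markers summed to 1982.2 to 6593.8 in GFP+ arrays and 801.1 to 1026.1 in RFP+ arrays. The mural markers summed to 4790.0 to 5934.3 in GFP+ arrays and 961.9 to 1103.9 in RFP+ arrays. Group means lay above the background guide for all 9 endothelial and 6 mural markers in GFP+ progenitors, and for 1 of each in RFP+ neurons. Of the 6 oligodendrocyte lineage markers 4 were higher in GFP+ progenitors, with sums of 1512.2 to 2296.2 against 588.4 to 817.1 in RFP+ neurons. Of 7 microglia markers none passed the test, with sums of 901.0 to 1450.6 in GFP+ arrays and 1142.5 to 1339.8 in RFP+ arrays, and only 1 and 2 of them had group means above the guide. Of 7 interneuron markers 2 were higher in GFP+ progenitors, with sums of 10179.6 to 11486.1 against 4563.5 to 10598.6 in RFP+ neurons. The 1 red blood cell marker measured lay at 104.6 to 254.9 in GFP+ arrays and 122.2 to 210.7 in RFP+ arrays. The part of these cells in the differences below was not tested. In such bulk samples fewer cells of a type and less RNA per cell cannot be told apart.

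The comparison asks how the microtubule regulators differ between progenitors and the neurons they give rise to. Of the 10 genes, 8 were lower in GFP+ progenitors, none was higher, and Map1a and Stmn1 did not pass the test. Over all 19938 genes, 16.2% passed in that direction and 13.7% passed as higher in GFP+ progenitors (limma, Benjamini-Hochberg adjusted p under 0.05). All 10 genes are bright, so brighter genes are the closer comparison. Without the dimmest 50% of genes, 2421 of the 9969 left were lower in GFP+ progenitors, as were 9 of the 10. At least a 2-fold lower level was found for 6 of the 10 genes and for 5.97% of all genes. The median log2 difference, GFP+ minus RFP+, was -1.29 for the 10 genes and -0.08 for all genes. The 3 arrays of each group did not overlap, with GFP+ below RFP+, for 9 of the 10 genes and for 24.1% of all genes. All differences are on the log2(intensity + 16) scale and each fold is RFP+ over GFP+ on that scale. The genes were chosen with earlier results of these data known.

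**Figure D1:**
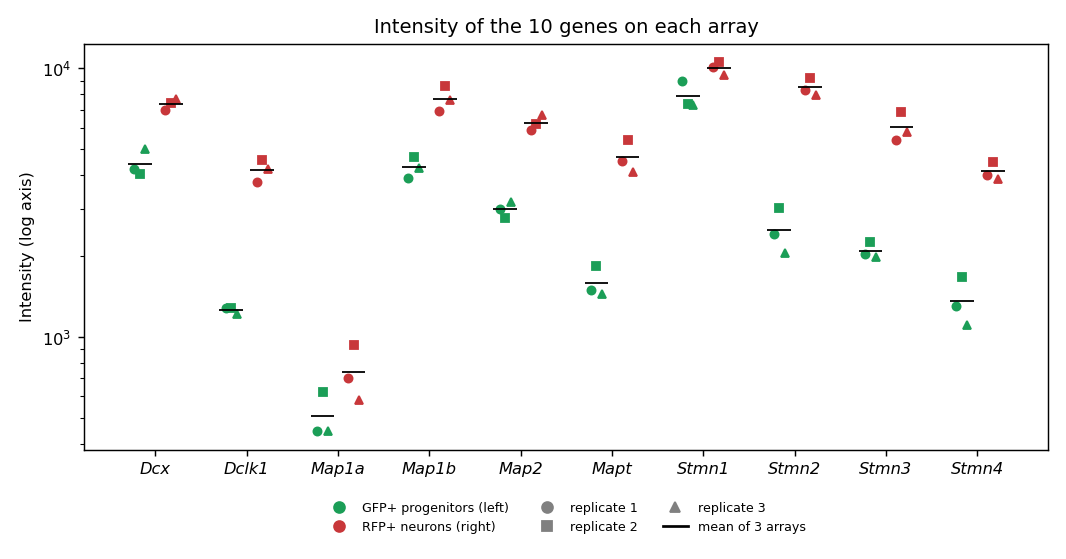
Intensity (log axis) of each of the 10 genes on the 3 GFP+ progenitor arrays (green, left) and the 3 RFP+ neuron arrays (red, right), with marker shape for the replicate number and a line at each group mean. Map1a is the gene whose groups overlap.

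Dcx (probe set 10607156) encodes doublecortin, a lattice-binding protein of migrating neurons. Its intensity was 4199.2, 4047.1 and 5012.9 in GFP+ progenitors, against 6979.1, 7403.7 and 7669.7 in RFP+ neurons. Every GFP+ array lay below every RFP+ array, yet the GFP+ mean remained 60.1% of the RFP+ mean. Dcx was 1.67-fold lower in GFP+ progenitors (log2 difference -0.74 ± 0.20 SE, limma adjusted p = 0.00793). With both arrays numbered 1 left out, the difference was again -0.74 and missed the threshold (limma adjusted p = 0.0594).

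Dclk1 (probe set 10492136) encodes a kinase that carries the doublecortin domains and acts alongside Dcx in migration and axon growth. It read 1275.2, 1282.7 and 1213.0 in GFP+ progenitors, against 3774.3, 4568.6 and 4234.1 in RFP+ neurons. The GFP+ arrays lay close together, with a coefficient of variation of 3.05% against 9.51% in RFP+ neurons, and far below the RFP+ arrays. Dclk1 was 3.30-fold lower in GFP+ progenitors (log2 difference -1.72 ± 0.20 SE, limma adjusted p = 1.06e-06). Only 1.62% of all genes had a more negative difference. The annotated start of Dclk1 printed above is 1 of 2 in the promoter table, and the probe set gives 1 value for the gene.

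Map1b (probe set 10411519) encodes a large MAP of growing axons and is among the first MAPs made by a young neuron. It read 3905.9, 4693.0 and 4241.3 in GFP+ progenitors, against 6940.3, 8606.9 and 7594.9 in RFP+ neurons. The groups did not overlap, and Map1b stayed bright in the progenitors at 55.5% of the RFP+ mean. It was 1.80-fold lower in GFP+ progenitors (log2 difference -0.85 ± 0.20 SE, limma adjusted p = 0.00293).

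Map1a (probe set 10475314), the relative of Map1b, encodes a MAP known from mature dendrites. It read 444.8, 623.0 and 447.2 in GFP+ progenitors, against 703.4, 933.6 and 583.5 in RFP+ neurons. GFP+ replicate 2 lay above RFP+ replicate 3, so the groups overlapped. The log2 difference of -0.53 ± 0.22 SE did not pass (limma adjusted p = 0.0818, 95% confidence interval -1.0 to -0.06). The replicate number as a block gave the same difference with a limma adjusted p of 0.0264. Map1a also passed without GFP+ replicate 2 or without RFP+ replicate 3, the 2 arrays that made the groups overlap, at a log2 difference of -0.68 in each case (limma adjusted p = 0.0416 and 0.0490).

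Map2 (probe set 10347036) encodes the classical dendritic MAP. It read 3000.7, 2760.8 and 3182.2 in GFP+ progenitors, against 5879.0, 6189.1 and 6713.1 in RFP+ neurons. The groups were well apart, with GFP+ at 47.6% of RFP+. Map2 was 2.09-fold lower in GFP+ progenitors (log2 difference -1.07 ± 0.20 SE, limma adjusted p = 0.000295).

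Mapt (probe set 10381776) encodes tau, the MAP enriched in axons. It read 1494.3, 1832.2 and 1437.2 in GFP+ progenitors, against 4511.2, 5425.0 and 4107.0 in RFP+ neurons. No GFP+ array approached the RFP+ arrays. Mapt was 2.93-fold lower in GFP+ progenitors (log2 difference -1.55 ± 0.21 SE, limma adjusted p = 7.22e-06).

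Stmn1 (probe set 10508986) encodes the founding stathmin, a cytosolic protein made in many dividing cells as well as in neurons. It read 8953.9, 7359.0 and 7305.8 in GFP+ progenitors, against 10082.2, 10519.0 and 9469.7 in RFP+ neurons. The groups did not overlap, but GFP+ replicate 1 came close to RFP+ replicate 3. The log2 difference of -0.35 ± 0.20 SE did not pass (limma adjusted p = 0.192), and its 95% confidence interval ran from -0.77 to 0.06. A second probe set annotated to Stmn1 held the same values on all 6 arrays and was counted once. RefSeq also lists pseudogene copies of Stmn1, and whether these probes read them was not tested.

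The other stathmins are neuronal proteins that carry a membrane-anchoring extension absent from Stmn1. Stmn2 (probe set 10490818), known as SCG10 and found in growth cones, read 2419.3, 3028.6 and 2058.8 in GFP+ progenitors, against 8325.1, 9218.0 and 7975.7 in RFP+ neurons. It had the largest difference of the 10 genes, with GFP+ at 29.4% of RFP+. Stmn2 was 3.42-fold lower in GFP+ progenitors (log2 difference -1.77 ± 0.21 SE, limma adjusted p = 1.46e-06).

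Stmn3 (probe set 10490665), known as SCLIP, read 2035.5, 2249.1 and 1976.3 in GFP+ progenitors, against 5403.4, 6885.3 and 5777.0 in RFP+ neurons. The GFP+ arrays lay close together and far below the RFP+ arrays. Stmn3 was 2.86-fold lower in GFP+ progenitors (log2 difference -1.52 ± 0.20 SE, limma adjusted p = 6.58e-06). A second Stmn3 probe set was dim, at 68.1 to 112.9 in GFP+ progenitors and 84.0 to 209.8 in RFP+ neurons, and its groups overlapped (log2 difference -0.63 ± 0.30 SE, limma adjusted p = 0.179 over all 35557 probe sets). With the mean of both probe sets the Stmn3 difference was -1.07 (limma adjusted p = 0.000872).

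Stmn4 (probe set 10416090), known as RB3, read 1301.5, 1664.6 and 1102.6 in GFP+ progenitors, against 4011.0, 4491.3 and 3883.9 in RFP+ neurons. The GFP+ arrays were the more variable, with a coefficient of variation of 21.0% against 7.76% in RFP+ neurons, but stayed well below them. Stmn4 was 3.06-fold lower in GFP+ progenitors (log2 difference -1.61 ± 0.21 SE, limma adjusted p = 5.46e-06).

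**Figure D2:**
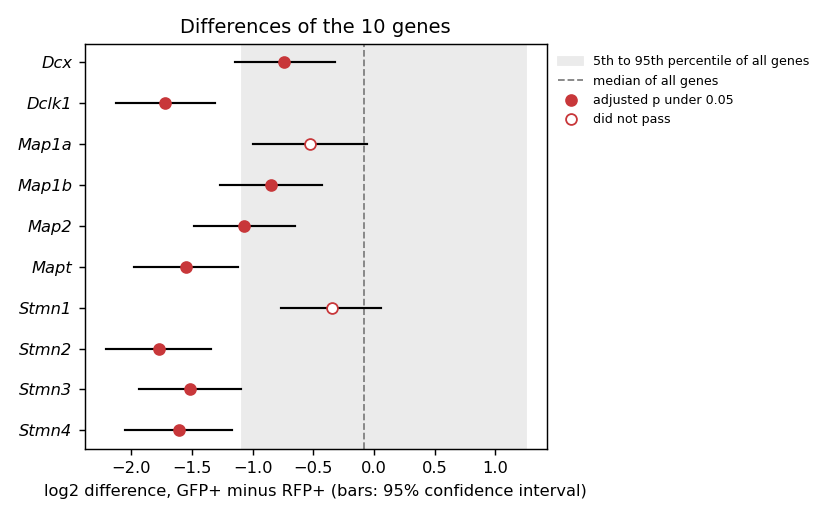
log2 difference, GFP+ minus RFP+, of the 10 genes with its 95% confidence interval. Filled points passed the test, open points did not, the grey band spans the 5th to 95th percentile of all genes and the dashed line is their median of -0.08. Dclk1, Mapt, Stmn2, Stmn3 and Stmn4 sit at -1.52 to -1.77.

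The sizes of the differences ranged widely. Stmn2, Dclk1, Stmn4, Mapt and Stmn3 lay at log2 differences of -1.77 to -1.52, with GFP+ means at 29.4% to 34.7% of the RFP+ means. Their confidence intervals, each for 1 gene by itself, overlapped and do not settle their order. Ratios within arrays, given below, compare some of these genes directly. Map2, Map1b and Dcx came next at -1.07 to -0.74, and Map1a and Stmn1 last. The interval of Map2, -1.48 to -0.65, overlapped those of all 5 genes above it. The intervals of Map1a and Stmn1 overlapped those of Map2, Map1b and Dcx. Neighbours in this order are thus not separated by these intervals. The intervals of Map1a and Stmn1 did not overlap those of the 5 genes with the largest differences. Over the 9 neuron markers the GFP+ mean was 8.61% to 56.6% of the RFP+ mean. It was 19.5% for Snap25 and 22.7% for Tbr1, which marks deep-layer cortical neurons. The 8.61% is that of Nefl, whose GFP+ mean of 37.8 lay under the background guide. The GFP+ mean of Nefm, 124.8, was under it too.

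Whether related genes changed unequally was examined by the ratio of 2 of them within each array. The ratio of one gene to another depends on their probes, so only its change between groups is read. In all, 9 ratios were compared with two-sided exact permutation tests, for which 3 arrays against 3 cannot give a p below 0.1. The log2 ratio of Stmn2 to Stmn1 was -1.66 ± 0.33 in GFP+ progenitors and -0.24 ± 0.04 in RFP+ neurons (SD, n = 3 each, exact p = 0.1, adjusted p = 0.18). The ratios of Stmn3 and of Stmn4 to Stmn1 differed by -1.16 and -1.26 on the log2 scale, GFP+ minus RFP+, and their arrays did not overlap between groups either. The neuronal stathmins thus had lower ratios to Stmn1 in every GFP+ array than in any RFP+ array, at the smallest p this design allows. For Stmn3 this depended on the probe set: with the mean of its probe sets the difference in ratio to Stmn1 was -0.72 and the arrays overlapped (exact p = 0.2, adjusted p = 0.225).

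Among the neuronal stathmins the ratios, from the brightest probe sets, differed by 0.16 and 0.26. The log2 ratio of Stmn4 to Stmn2 was -0.88 ± 0.02 in GFP+ progenitors and -1.04 ± 0.01 in RFP+ neurons (SD, n = 3 each, exact p = 0.1, adjusted p = 0.18). That difference of 0.16 was larger than the spread between arrays. The ratio of Stmn3 to Stmn2 differed by 0.26 with overlapping arrays (exact p = 0.2, adjusted p = 0.225), and by 0.70 without overlap with the mean of the Stmn3 probe sets (exact p = 0.1, adjusted p = 0.18). The log2 ratio of Dclk1 to Dcx was -1.80 ± 0.21 in GFP+ progenitors and -0.81 ± 0.10 in RFP+ neurons (SD, n = 3 each, exact p = 0.1, adjusted p = 0.18), with no overlap. The ratios of Map1a to Map1b, Mapt to Map2 and Map2 to Map1b differed by 0.32, -0.48 and -0.22 and their arrays overlapped (exact p = 0.2, 0.2 and 0.3, with adjusted p = 0.225, 0.225 and 0.3). Within same-numbered pairs, GFP+ minus RFP+, the ratio of Map1a to Map1b differed by 0.18, 0.30 and 0.47, that of Mapt to Map2 by -0.62, -0.40 and -0.43, and that of Map2 to Map1b by -0.14, -0.29 and -0.24. All 3 pairs had 1 sign in each of the 9 ratios except Stmn3 to Stmn2, and an exact sign-flip test over 3 pairs cannot give a p below 0.25.

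**Figure D3:**
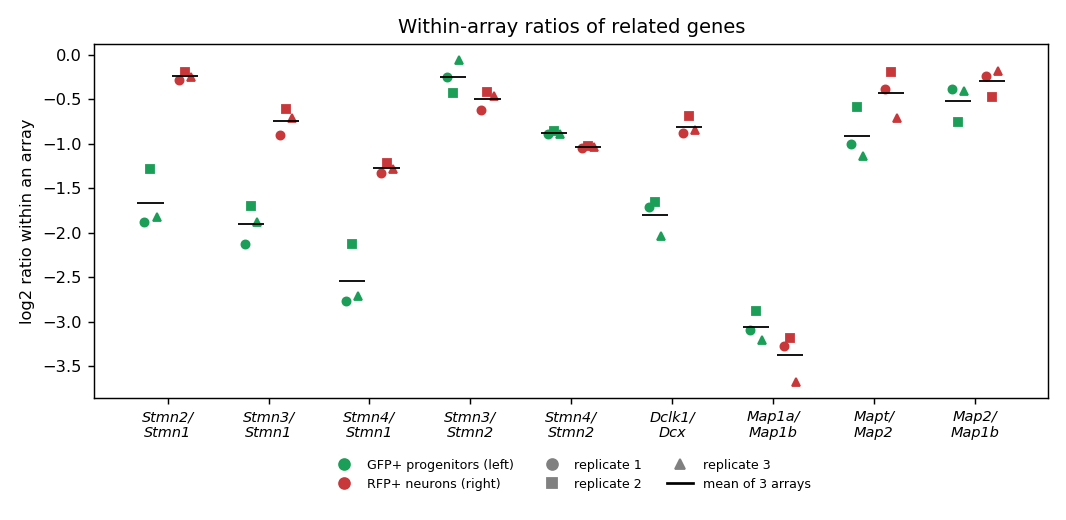
Within-array log2 ratio of each pair of related genes on the 3 GFP+ arrays (green, left) and the 3 RFP+ arrays (red, right), with a line at each mean. The ratios of Stmn2, Stmn3 and Stmn4 to Stmn1 and of Dclk1 to Dcx are lower on every GFP+ array than on any RFP+ array.

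Within a group the genes varied together by replicate number. Dclk1, Map1a, Map1b, Mapt, Stmn2, Stmn3 and Stmn4 were highest on replicate 2 in both groups, which is 7 of the 10 genes, while 17% of all genes had that order. Dcx and Map2 were highest on replicate 3 in both groups, an order seen for 18.3% of all genes. Stmn1 was highest on replicate 1 in GFP+ progenitors and on replicate 2 in RFP+ neurons. The summed neuron markers were also highest on replicate 2, at 9502.3 among GFP+ arrays and 30432.5 among RFP+ arrays, and their part in this order was not tested. The median deviation of the 10 genes from the group mean was 0.12 on GFP+ replicate 2 and 0.13 on RFP+ replicate 2 (log2), against 0.03 and 0.01 for all genes.

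**Figure D4:**
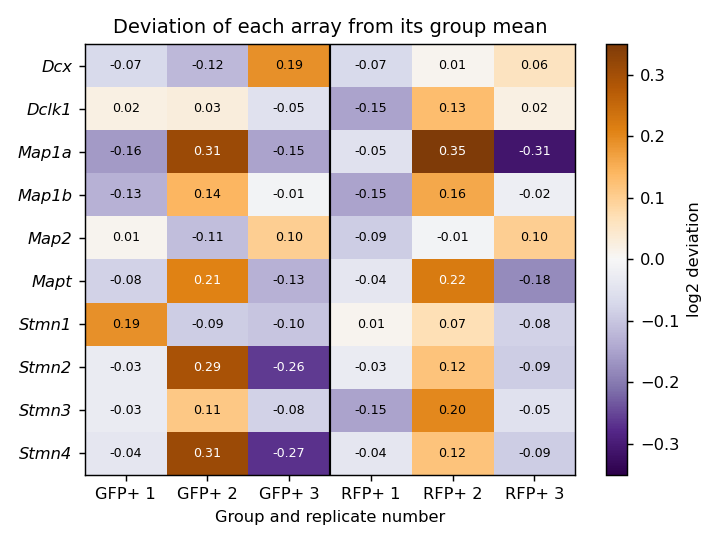
log2 deviation of each gene on each array from the mean of its own group, by group and replicate number (columns) and gene (rows). Replicate 2 is high for 7 genes in both groups, with Map1a at 0.31 on the GFP+ array and 0.35 on the RFP+ array.

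Genes with the most similar pattern over the 6 arrays were found by root mean square distance between log2 profiles after centring each gene. With 6 arrays in 2 groups, a small distance mainly reflects a similar group difference, such as -1.54 for Sv2a and -1.55 for Mapt. Nothing more is read from it. Sv2a, a synaptic vesicle protein gene, lay nearest to Mapt at 0.0314, and Csrp2, a LIM domain protein gene, lay nearest to Dclk1 at 0.0319. Orai2, a calcium channel gene, was nearest to Stmn3 (0.0322), Lmtk3 to Map2 (0.0363), Ccni to Dcx (0.0429), Crtac1 to Stmn2 (0.0446), Tanc2 to Map1b (0.0461) and Rab3a, a synaptic vesicle GTPase gene, to Stmn4 (0.0492). The nearest to Map1a and Stmn1 were Jazf1 (0.0571) and Gucy2d (0.0420). Gucy2d was under the background guide with means of 122.9 in GFP+ progenitors and 169.4 in RFP+ neurons. The GFP+ mean of Crtac1, 73.6, was under the guide too.

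Other structural MAPs, listed together with other genes of the doublecortin domain, were more often lower than higher in GFP+ progenitors. Of 17 measured, 7 were lower in GFP+ progenitors, 2 were higher and 8 did not pass, with a median log2 difference of -0.48. Over all genes, 16.2% were lower and 13.7% higher. Map6, which encodes the cold-stable microtubule protein STOP, averaged 759.4 ± 49.4 in GFP+ progenitors and 2575.6 ± 370.4 in RFP+ neurons (SD, n = 3 each), a log2 difference of -1.73. Mtcl1, a microtubule crosslinking gene, and Map9 differed by -1.40 and -1.28. The 2 genes higher in GFP+ progenitors, Tppp3 and Map7d3, had means under the background guide in both groups. So did Tppp, among the 7 lower genes. Dclk2, the close relative of Dclk1, averaged 1776.9 ± 473.7 in GFP+ progenitors and 2068.8 ± 316.5 in RFP+ neurons and did not pass (limma adjusted p = 0.444). Map4, a MAP of many non-neuronal cells, averaged 1373.6 ± 41.9 in GFP+ progenitors and 1919.7 ± 103.1 in RFP+ neurons and did not pass either (limma adjusted p = 0.0716). Dclk2 and Map4 were named after their values were seen.

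Genes for proteins that bind microtubule ends were more often lower than higher in GFP+ progenitors. Of 25 measured, 13 were lower, 2 were higher and 10 did not pass, with a median of -0.54. Over all genes, 16.2% were lower and 13.7% higher. The neuron navigator genes Nav2 and Nav3 differed by -2.20 and -1.85, and Camsap3, a minus-end binding protein gene, by -1.5. Tacc3, a spindle and centrosome gene, went the other way at 3327.3 ± 511.8 in GFP+ progenitors against 527.9 ± 61.9 in RFP+ neurons (SD, n = 3 each), as did Tacc1 with a log2 difference of 1.60. The count of lower genes in this list was 9 to 13 when a single array was left out and 8 without both arrays numbered 1.

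Mitotic spindle genes mostly went opposite to the 10 genes. Of 18 mitotic spindle MAPs and motors, 14 were higher in GFP+ progenitors, none was lower and 4 did not pass, with a median log2 difference of 2.06. For this count and the next, the shares over all genes are 13.7% higher and 16.2% lower. Dlgap5, a spindle assembly gene, Kif4, a chromosome-associated kinesin gene, and Kif11, the kinesin that keeps spindle poles apart, were 6.51-fold, 5.90-fold and 5.61-fold higher. Of 13 severing and depolymerising genes, 6 were higher, none was lower and 7 did not pass, with a median of 0.51. Katnal2 and Kif24, among the 6, had means under the background guide in both groups. Kif2c, which strips tubulin from microtubule ends at the kinetochore, led at 1314.3 ± 90.0 in GFP+ progenitors against 240.2 ± 12.3 in RFP+ neurons (SD, n = 3 each), followed by Fignl1 (log2 difference 2.17) and Kif18b (2.09). The RFP+ means of Kif4 and Kif18b, 171.3 and 163.3, lay under the background guide. The proliferation marker gene Mki67 was 5.44-fold higher in the same GFP+ arrays. The part of cell division in these differences was not tested.

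Of 13 nucleation genes measured, 2 were lower in GFP+ progenitors, 2 were higher and 9 did not pass, with a median of 0.25. These counts are near the shares over all genes, 16.2% lower and 13.7% higher. Tubg2, a gamma-tubulin gene, averaged 268.8 ± 67.2 in GFP+ progenitors and 697.8 ± 117.5 in RFP+ neurons (SD, n = 3 each), a log2 difference of -1.34. Akap9, a scaffold of the Golgi and centrosome, differed by -0.72, whereas Nedd1, which brings gamma-tubulin to the spindle, and Tubgcp4 differed by 1.5 and 0.66. With the replicate number as a block, 4 were higher. The count of higher genes was 1 when RFP+ replicate 1, RFP+ replicate 2 or GFP+ replicate 3 was left out, and that of lower genes was 1 without GFP+ replicate 2 or RFP+ replicate 3.

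Of 23 tubulin-modifying enzyme genes, 9 were lower in GFP+ progenitors, 1 was higher and 13 did not pass, with a median of -0.46. The shares over all genes were 16.2% lower and 13.7% higher. The count of lower genes in this list was 7 when any single array was left out and 6 without both arrays numbered 1. The glutamylase genes Ttll7 and Ttll1 differed by -1.29 and -1.17, and Agtpbp1, the deglutamylase whose loss causes Purkinje cell degeneration in mice, by -1.16. The GFP+ mean of Ttll7, 154.0, lay under the background guide. Ttll4, another glutamylase gene, was 1.81-fold higher in GFP+ progenitors, and 2 genes were higher without GFP+ replicate 3. Of 20 kinase and phosphatase genes acting on MAPs, 13 were lower in GFP+ progenitors, 1 was higher and 6 did not pass, with a median of -0.73. The shares over all genes are the same 16.2% and 13.7%. The count of lower genes among these 20 was 10 to 14 when a single array was left out. Camk2b differed by -2.83, Ppp2r2c, a regulatory subunit of protein phosphatase PP2A, by -2.26, and Mapk8, which encodes the kinase JNK1, by -1.52. The GFP+ mean of Ppp2r2c, 193.6, lay under the background guide. Camk2a was the exception at 410.9 ± 78.8 in GFP+ progenitors and 120.0 ± 32.8 in RFP+ neurons (SD, n = 3 each), the RFP+ mean being under the background guide.

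The tubulin isotype genes that were measured moved one way, but only 9 of the 12 listed were measured. Of these 9, 7 were lower in GFP+ progenitors, none was higher and 2 did not pass, with a median of -0.83. At least a 2-fold lower level was found for 1 of them. Over all genes, 16.2% were lower and 13.7% higher. Tubb4a, Tuba4a and the neuronal isotype gene Tubb3 differed by -1.33, -0.98 and -0.93.

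**Figure D5:**
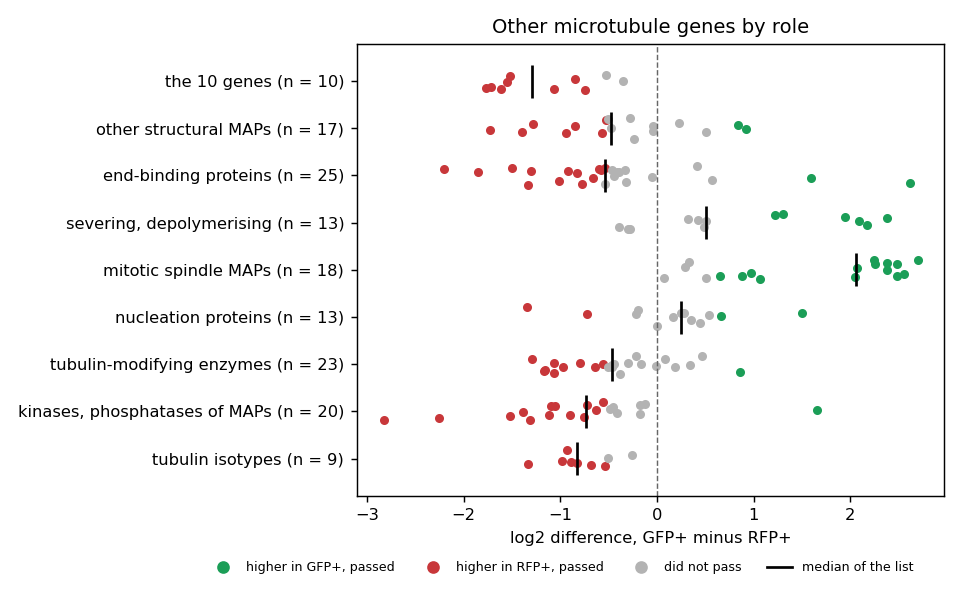
log2 difference, GFP+ minus RFP+, of each gene in the set of 10 and in 8 lists of other microtubule genes. Green points passed as higher in GFP+ progenitors, red points as higher in RFP+ neurons, grey points did not pass, and black lines are list medians. The medians run from -1.29 for the 10 genes to 2.06 for the mitotic spindle MAPs.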

How the data were processed

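RNA of 6 sorted cell samples was hybridised to Affymetrix whole-transcript arrays, 1 array per sample, per the labels' protocols. The deposited values are 1 linear intensity per probe set and array, and the authors used Affymetrix Expression Console, per the submitters' processing notes. Its version, background correction, normalization and summarisation are not given in the sources used here, and they set how dim values compare.

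Of 35557 probe sets, 21789 carried 1 gene symbol, 1621 several and 12147 were unnamed here. For each gene the single-symbol probe set with the highest mean log2 value over the 6 arrays represented it, and all 19938 genes so obtained were tested. GFP+ minus RFP+ differences of log2(intensity + 16) were fitted with limma 3.58.1 in R 4.3.3 (lmFit, eBayes, two-sided, Benjamini-Hochberg over all genes, threshold 0.05). Ratios within arrays used exact permutation tests in scipy 1.17.1. Python 3.11.15, pandas 2.3.3, numpy 2.4.6 and matplotlib 3.10.9 made tables and figures. The fit was tested on simulated data of 19938 genes. It called 1 of 50 genes changed 1.5-fold, 21 of 50 changed 2-fold and 46 of 50 changed 4-fold. It also called 5 of 19738 unchanged genes. With so many genes unchanged, against 5973 that passed in the real data, these rates do not carry over to the real fit.

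The 10 genes and all lists were chosen with earlier results of these data known. Beside the 10 genes, those named are the 3 passing genes of each list with the largest difference in its main direction and the 2 largest in the other, the genes nearest in profile, markers fixed for checking the labels, and Dclk2 and Map4, added after their values were seen. Katnal2, Kif24 and Tppp are named besides, for means under the background guide. Entries of the lists that were not measured are not analysed here. The titles number the replicates in both groups. Across genes, deviations from the group mean correlated at 0.204, 0.288 and 0.361 between same-numbered arrays and at -0.267 to 0.00422 otherwise, so the numbers were taken to pair the samples. The unpaired fit is the main one, and the paired fit is an alternative. The paired fit called 9 of the 10 genes lower in GFP+ progenitors, with Map1a added. Over all genes it called 4045 lower and 3321 higher, against 3233 and 2740 in the unpaired fit. Other alternatives were quantile normalization, median centring, filters on dim genes, averaging the probe sets of a gene, offsets of 1 and 64, weights per array, robust moderation with an intensity trend, a 2-fold size threshold, leaving out each array, and leaving out both arrays numbered 1. Differences of the ratios within same-numbered pairs were added after seeing the data.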

Additional observations from a re-analysis of the deposited data

How the results depend on the processing

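None of the 18 alternatives reversed the direction of any of the 10 genes. Dclk1, Map1b, Map2, Mapt, Stmn2, Stmn3 and Stmn4 passed under all 18, and Stmn1 under none, with limma adjusted p values of 0.062 to 0.360. Dcx lost its call without both arrays numbered 1 (log2 difference -0.74, adjusted p = 0.0594), which leaves 2 arrays per group. Map1a passed under 7 alternatives: with the replicate number as a block or as a random effect, without the dimmest 50% of genes, and with an intensity trend and robust moderation (log2 difference -0.53 in each), with an offset of 64 (-0.49), and without GFP+ replicate 2 or RFP+ replicate 3, where leaving out single arrays gave -0.68 to -0.35. The replicate block changed no other call of the 10 genes. The count of the 10 genes lower in GFP+ progenitors was 6 with a 2-fold size threshold and otherwise 7 to 9. Over all genes, that threshold left 1394 genes higher in GFP+ progenitors and 1191 lower. Without both arrays numbered 1, 1847 were lower. The causes of these shifts were not tested, beyond the fewer arrays or the size threshold that define them. By the exact permutation test no within-array ratio could reach an adjusted p under 0.05 with these group sizes, and none reversed. The same holds for the exact test within pairs (replicate block), with adjusted p = 0.281 for 8 ratios and 0.5 for Stmn3 to Stmn2. Of 192 recomputed counts of the single lists, 181 stayed within 1.5 times and 11 moved, 8 of these in the small nucleation list. The method behind the deposited intensities limits what can be said of dim genes.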
